A study of Mus musculus with 3 samples.

Results

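Regions bound by Yap1 were examined at the genes of the mitochondrial carrier family, whose mouse symbols begin with Slc25a. The deposited table had 22020 regions, and the 66 whose list of genes held such a symbol were taken. The rule reads gene symbols and no signal value, though the family itself was picked with earlier results of these data known. They covered 34 of the 47 protein-coding Slc25a genes in the RefSeq gene table. The data came from the hearts of wild-type C57BL/6J males, by chromatin immunoprecipitation with an antibody to Yap1 followed by sequencing (ChIP-seq). One library was from mice with transverse aortic constriction (TAC), which narrows the aorta and loads the left ventricle with pressure, and the other from mice with a sham operation, both 7 days after surgery. The design gives 3 mice per operation, but the sources used here do not say whether each library pooled its mice. Each operation had 1 library, so differences could not be set against the spread between mice, and "higher" and "lower" refer to this pair of libraries. The whole heart was used, so cell types are mixed, and fewer cells of a type and less bound Yap1 per cell cannot be told apart.

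Mitochondrial carriers are proteins of the inner mitochondrial membrane that exchange nucleotides, phosphate, carboxylates, amino acids, acylcarnitines and cofactors between the matrix and the cytosol. The heart leans on them heavily, because nearly all of its ATP is made in mitochondria and has to be exported in exchange for ADP. Yap1 is the co-activator at the end of the Hippo pathway. It does not bind DNA by itself and reaches it mostly through TEAD factors.

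The start sites of 22 Slc25a genes lay inside a Yap1 region, out of 36 present in a RefSeq table of promoters (build GRCm38.p6). Promoters of 5 of them are shown, from 250 bases before the start up to the base before it, 5′ to 3′ on the strand of the gene. They are the promoter of the strongest region of the family (Slc25a3), that with the lowest ratio of TAC to sham signal among regions listed for the gene's own start (Slc25a20), the upstream start of a gene whose regions diverged (Slc25a25), one with motifs of both factors (Slc25a36) and the promoter of the second ADP/ATP carrier (Slc25a5). Capitals mark GGAATG or its reverse complement CATTCC, the core of the TEAD site, and TGCGCA, the core of the site of the mitochondrial gene regulator NRF1.
Slc25a3 (chr10:91123968-91124217, minus strand): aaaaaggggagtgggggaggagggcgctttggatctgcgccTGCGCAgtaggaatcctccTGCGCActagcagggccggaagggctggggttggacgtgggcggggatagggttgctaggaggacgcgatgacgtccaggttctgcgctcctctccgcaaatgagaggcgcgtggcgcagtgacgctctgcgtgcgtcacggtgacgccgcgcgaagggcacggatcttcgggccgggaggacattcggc
Slc25a20 (chr9:108661886-108662135, plus strand): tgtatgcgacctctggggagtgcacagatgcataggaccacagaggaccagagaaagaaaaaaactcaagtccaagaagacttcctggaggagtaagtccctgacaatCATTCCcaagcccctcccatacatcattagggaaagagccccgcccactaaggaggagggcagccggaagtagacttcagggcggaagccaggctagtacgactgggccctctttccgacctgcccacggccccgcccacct
Slc25a25 (chr2:32451471-32451720, minus strand): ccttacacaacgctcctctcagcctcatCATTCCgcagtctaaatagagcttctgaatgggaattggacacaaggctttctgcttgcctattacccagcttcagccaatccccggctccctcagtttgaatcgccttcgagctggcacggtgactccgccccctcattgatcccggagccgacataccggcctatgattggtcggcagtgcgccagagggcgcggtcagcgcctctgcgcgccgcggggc
Slc25a36 (chr9:97111042-97111291, minus strand): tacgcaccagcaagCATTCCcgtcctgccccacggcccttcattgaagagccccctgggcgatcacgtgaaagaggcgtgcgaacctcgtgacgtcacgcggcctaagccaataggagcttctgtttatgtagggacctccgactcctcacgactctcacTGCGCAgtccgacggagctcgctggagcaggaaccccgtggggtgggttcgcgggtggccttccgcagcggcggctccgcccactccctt
Slc25a5 (chrX:36795347-36795596, plus strand): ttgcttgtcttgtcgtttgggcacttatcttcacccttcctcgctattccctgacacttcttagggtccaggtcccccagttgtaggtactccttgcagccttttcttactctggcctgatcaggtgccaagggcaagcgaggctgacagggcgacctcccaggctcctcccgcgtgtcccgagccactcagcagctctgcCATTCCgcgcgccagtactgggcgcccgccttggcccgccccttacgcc

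Over windows of 300 bases, which add the 50 bases after the start, GGAATG was found on either strand in 6 of the 22 Slc25a genes with a start inside a Yap1 region (27.3%). The same held for 1175 of 8379 such genes of any kind (14.02%). The 6 genes were Slc25a5, Slc25a16, Slc25a20, Slc25a23, Slc25a25 and Slc25a36, and the windows of Slc25a23 overlap and share a single copy. Counted by window instead of gene, GGAATG stood in 8 of 28 Slc25a windows inside Yap1 regions (28.6%) and in 1 of 18 outside (5.56%). Over all promoter windows the order was the other way round, with 12.6% inside regions and 15.5% outside. TGCGCA was found in 2 of the 22 genes (9.09%) against 15.97% of all, and TGANTCA, the site of AP-1 factors, in 2 of the 22 (9.09%) against 5.65%. AAGGTCA, the core of the site of estrogen-related receptors, was in none of the 22 and in 3.76% of all. These motifs overlapped no other motif in the printed promoters. The median GC content of the Slc25a windows inside regions was 60.7%, close to the 61.3% of all windows inside regions. A match of these letters is a description of the sequence and no evidence of a bound factor. Over all genes, the log2 ratio of TAC to sham had a median of -0.51 in regions whose promoter windows held GGAATG and -0.48 in those that lacked it. The other motifs split in the same direction, so this was not particular to GGAATG. The medians were -0.51 with and -0.49 without TGANTCA, -0.52 and -0.49 for AAGGTCA, and -0.50 and -0.48 for TGCGCA.

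The signal values are the deposited average signal over each region, and ratios are log2((TAC + 1)/(sham + 1)), with a pseudocount of 1 that understates differences of weak regions. Over all 22020 regions the median average signal was 7.46 in TAC and 10.6 in sham, and the median log2 ratio was -0.54. The sources used here do not give the scaling of the libraries to each other or their depth, so the part of either in this shift was not tested. TAC had a call at 48.7% of regions and sham at 96.6%. As a check of the tissue, all 7 cardiomyocyte genes looked up had a listed region, against 2 of 5 hepatocyte genes and 0 of 5 neuronal genes. Of all protein-coding genes, 53.2% had one. A listed region need not lie at the gene's own start: the strongest one of Myh6 was listed for 4 genes and lay 26265 bp downstream. For the cardiomyocyte genes, each by its strongest region, the median log2 ratio was -0.77, and 6 of the 7 (85.7%) were at least 1.5-fold lower in TAC, against 36.3% of all listed genes. The 2 hepatocyte genes were at -0.76 and -1.11. The part of cell composition in the values of the carriers was not tested.

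The Slc25a regions followed the shift of the whole table. All 66 had less average signal in TAC, with a median of 8.08 in TAC and 11.9 in sham, and a median log2 ratio of -0.57 (95% order-statistic interval over regions -0.59 to -0.50). Average signal was at least 1.5-fold lower in TAC at 27 of the 66 regions (40.9%), against 43% of all regions. It was at least 1.5-fold higher in TAC at 0 of the 66 (95% exact binomial interval up to 5.44%), against 0.486% of all regions. Set against the all-region median, 38 of the 66 ratios (57.6%) lay below and the others above, where 50% of all regions lie below. Past 1.5-fold relative to that median, 0 of the 66 were lower and 0 were higher, against 2.31% and 4.42% of all regions. The ratios of the family spanned -1.03 to -0.056, with an SD of 0.24 over regions, while all other regions had an SD of 0.32.

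**Figure D1:**
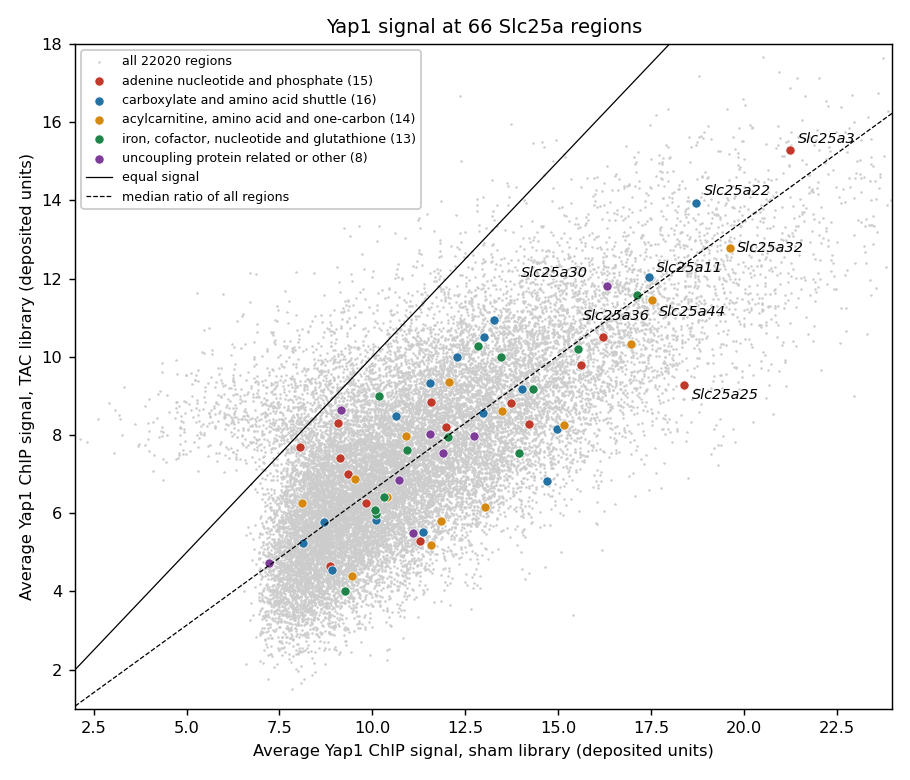
Average Yap1 signal in the TAC library (vertical axis) against the sham library (horizontal axis), in deposited units, for all 22020 regions (grey) and the 66 Slc25a regions (coloured by transport role, the 8 strongest named). All 66 lie below the line of equal signal and on both sides of the dashed line of the median ratio; 127 regions with over 24 in sham or over 18 in TAC lie outside the axes.

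Yap1 regions of the family lay mostly at promoters and CpG islands. A promoter was counted to 50 of the 66 (75.8%), against 44.3% of all other regions, and a CpG island to 46 (69.7%), against 35.9%. Both shares were higher at regions of respiratory chain and ATP synthase genes (92.6% and 73.3%) and of mitochondrial ribosomal protein genes (87.7% and 78.3%). A call was made in both libraries at 41 of the 66 (62.1%), against 45.3% of all regions, in sham only at 24 (36.4%), against 51.3%, and in TAC only at 1 (1.52%), against 3.4%. Among promoter regions, the share called in both was 68.0% for the family and 58.4% for all others. The median strength of the family, as the percentile of its mean signal over both libraries among all regions, was 63.0, and among promoter regions the family stood at 72.6 and all others at 69.1. The median region was 2309 bp long, against 2114 bp elsewhere.

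Many of these regions are shared with other genes. Of the 66, 40 (60.6%) were listed for at least 1 further gene, against 27.96% of all other regions, and in 23 of them the start of another listed gene was nearer than that of the carrier. Where a region is shared, its signal cannot be assigned to the carrier. The further listed genes of a region are not always named below. Below, a region is said to lie at the start of a gene if its midpoint is within 1000 bp of it. The midpoint was within 5000 bp of the carrier's start in 32 regions and within 1000 bp in 24.

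Carriers that exchange ADP, ATP and phosphate held the strongest region. Slc25a3 encodes the phosphate carrier, which brings in the phosphate for ATP synthesis. It had 15.3 in TAC and 21.3 in sham (log2 ratio -0.45) at chr10:91122545-91125372, a region listed for this gene alone and centred 5 bp inside it. This was the highest of the 66 in both libraries, and higher than 99.0% of all regions by mean signal. Its promoter holds a pair of TGCGCA copies, starting 209 and 190 bases before the start.

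Slc25a4 encodes the ADP/ATP carrier that prevails in heart and skeletal muscle. Its main region, chr8:46202098-46213089, was also listed for 4933411K20Rik. This region had 10.50 in TAC and 16.2 in sham (-0.58), and at 10991 bp it was the longest of the 66. It merged 4 called intervals and spans the whole gene of 3895 bp. The regions upstream were weaker. The one centred 5863 bp upstream had 7.02 in TAC and 9.35 in sham (-0.37), and the one 9840 bp upstream had 4.66 in TAC and 8.85 in sham (-0.80), with a call in sham only. Slc25a5 encodes the ADP/ATP carrier found in most proliferating tissues. At its start it had 8.85 in TAC and 11.6 in sham (-0.35), so it was weaker than the main region of Slc25a4 in both libraries, with a ratio above the median of all regions. A second listed region, 12268 bp downstream of the start, had 8.32 in TAC and 9.08 in sham (-0.11), the third highest ratio of the 66. It was nearer to the start of 2310010G23Rik, at 9280 bp.

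Slc25a25 and Slc25a23 encode calcium-regulated carriers of ATP-magnesium and phosphate. At the upstream start of Slc25a25, chr2:32449814-32453794, average signal was 9.29 in TAC and 18.4 in sham (-0.92), the eighth strongest region of the family. This region was also listed for Naif1. The regions inside Slc25a25 differed much less between the libraries. The one 21258 bp inside had 7.70 in TAC and 8.04 in sham (-0.056), the highest ratio of all 66, with a call in sham only. The one 14282 bp inside had 7.42 in TAC and 9.14 in sham (-0.27). The region 29398 bp inside had 8.21 in TAC and 11.99 in sham (-0.50). RefSeq places further starts of Slc25a25 inside the regions at 21258 bp and at 29398 bp. Slc25a23 had 8.83 in TAC and 13.7 in sham (-0.58) near its start.

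Slc25a42 encodes a carrier of coenzyme A, and its 3 regions were all called in sham only. The region at the start had 8.28 in TAC and 14.2 in sham (-0.72), and the one 3813 bp upstream had 5.29 in TAC and 11.3 in sham (-0.96). Both were also listed for Armc6. The third, at the start of its neighbour Tmem161a and also listed for Mef2b, had 6.27 in TAC and 9.83 in sham (-0.58). The single region listed for Slc25a41 lay at the start of Khsrp, 9268 bp away. This group of carriers had 15 regions at 7 genes. The median of their log2 ratios was -0.58, and 8 of the 15 lay below the median of all regions.

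Carriers of the malate-aspartate shuttle, which moves reducing equivalents into the matrix, differed from one another. Slc25a12 and Slc25a13 encode the aspartate-glutamate carriers aralar and citrin, of which aralar prevails in the heart. At the start of Slc25a12, chr2:71366439-71368550, signal was 10.9 in TAC and 13.3 in sham (-0.26), and by maximum signal it was higher in TAC, with 29 against 25 in sham. The region 13655 bp inside had 8.49 in TAC and 10.6 in sham (-0.29) and the same maximum, 24, in both libraries. The third listed region lay 102727 bp downstream of the start and nearer to that of Dync1i2, with 5.24 in TAC and 8.14 in sham (-0.55).

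Slc25a13 had 6 regions, the most of any gene in the family. The one around its start, chr6:6209222-6219255, also listed for LOC101056138, was 10033 bp long and had 5.82 in TAC and 10.1 in sham (-0.70). The strongest lay 32290 bp inside, with 6.83 in TAC and 14.7 in sham (-1.003), and the one 56642 bp inside had 5.51 in TAC and 11.4 in sham (-0.93). The region 18031 bp inside had 9.33 in TAC and 11.5 in sham (-0.28), so regions of the same gene spanned 0.72 in log2 ratio. Those at 20143 bp and 22699 bp had ratios of -0.52 and -0.84, both with a call in sham only.

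Slc25a11 encodes the oxoglutarate-malate carrier, the partner of aralar in the shuttle. The region at its start, chr11:70644055-70650338, spans 98.9% of the gene and had 8.14 in TAC and 14.96 in sham (-0.80), in a region listed for 5 genes. A second region listed for Slc25a11 sat at the start of Eno3, the muscle enolase gene, and had 12.03 in TAC and 17.4 in sham (-0.50). Slc25a22, a glutamate carrier gene, was listed for the second strongest region of the 66, with 13.9 in TAC and 18.7 in sham (-0.40). That region is at the start of the ribosomal protein gene Rplp2, 9550 bp upstream of Slc25a22. The region over Slc25a22 itself had 9.18 in TAC and 14.02 in sham (-0.56) and spans the whole gene of 8126 bp, with the start of Cend1 nearest to its midpoint.

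Slc25a10, the dicarboxylate carrier gene, had 9.99 in TAC and 12.3 in sham at its start (-0.27), one of the smaller differences of the family. The region of its neighbour Mrpl12 had 10.50 in TAC and 13 in sham (-0.28). Both regions were also listed for Hgs, Mrpl12 and Gm16755. Slc25a1, the citrate carrier gene, was listed for a region 6324 bp downstream of its start, with 8.55 in TAC and 12.97 in sham (-0.55). Over the 16 regions at these 6 genes the log2 ratio had a median of -0.53, with 8 below the median of all regions.

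**Figure D2:**
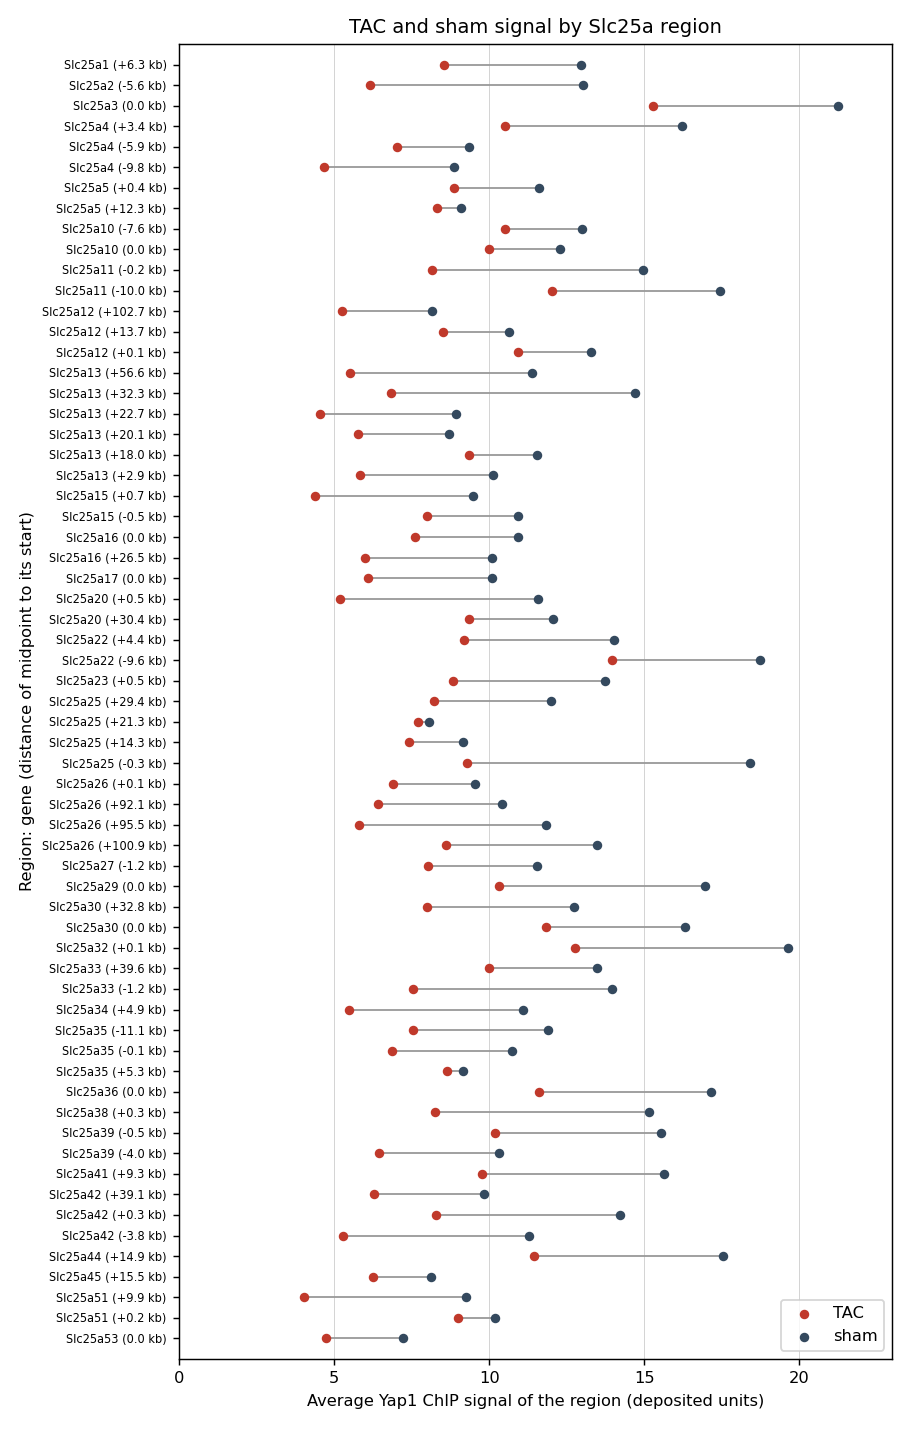
Average Yap1 signal in TAC (red) and sham (dark) at 63 of the 66 Slc25a regions, in deposited units, 1 row per region with the distance of its midpoint from the start of the carrier gene. Signal in TAC is the lower one in every row, by the least at Slc25a25 (21258 bp inside, 7.70 in TAC and 8.04 in sham).

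Slc25a20 encodes the carnitine-acylcarnitine carrier, which brings long-chain fatty acids into the matrix for oxidation. At its start, chr9:108661421-108663815, signal was 5.19 in TAC and 11.6 in sham, a log2 ratio of -1.02, the second lowest of the 66 and at percentile 4.40 of all regions. The region was called in sham only, and its maximum was 13 in TAC and 33 in sham. The next region, at the start of the neighbour Prkar2a and 30440 bp from the start of Slc25a20, had 9.35 in TAC and 12.1 in sham (-0.33), with a call in both libraries. The promoter of Slc25a20 printed above holds CATTCC, starting 142 bases before the start.

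Together with Slc25a20, the amino acid and one-carbon carriers had the lowest median ratio of the role groups, -0.61 over 14 regions. Of the 14, 10 lay below the median of all regions, where 50% of all regions lie. The call was in sham only at 7 of the 14, close to the 51.3% of all regions. Several of the 14 lie nearer to the start of another listed gene than to that of the carrier. Slc25a32 encodes a carrier of folate and was the third strongest region of the family. It had 12.8 in TAC and 19.6 in sham (-0.58) in a region also listed for Dcaf13. Slc25a44, a carrier gene for branched-chain amino acids, had 11.4 in TAC and 17.5 in sham (-0.57) in a region centred 29 bp from the start of its neighbour Pmf1 and 14852 bp from its own. Slc25a38, which encodes a glycine carrier needed for haem synthesis, had 8.26 in TAC and 15.1 in sham (-0.80).

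Slc25a15, the ornithine carrier gene, had adjoining regions with midpoints on either side of its listed start. RefSeq places a start of the gene inside each of them. The one 717 bp inside had 4.39 in TAC and 9.46 in sham (-0.96), and the one 545 bp upstream had 7.98 in TAC and 10.9 in sham (-0.41). Of the listed starts, that of 1810012K16Rik was nearer to the upstream region. The intronless Slc25a2, a related ornithine carrier gene, was listed for a region at the start of Taf7 with 6.15 in TAC and 13.03 in sham (-0.97). Slc25a26 encodes the S-adenosylmethionine carrier and had 4 regions. At its start signal was 6.89 in TAC and 9.52 in sham (-0.42). The regions 92117, 95453 and 100860 bp inside had ratios of -0.62, -0.92 and -0.59, and only the middle one was called in both libraries. The region 100860 bp inside was nearer to the start of Lrig1. Slc25a29, a basic amino acid carrier gene, had 10.3 in TAC and 16.97 in sham (-0.67), and the Slc25a45 region, at the start of Tigd3, had 6.26 in TAC and 8.11 in sham (-0.33).

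Carriers of cofactors, nucleotides and glutathione held the lowest ratio of the family. Slc25a51 encodes the carrier of NAD. A region 9929 bp inside this gene had 4.02 in TAC and 9.26 in sham (-1.03), while the region at its start, chr4:45407360-45409849, had 9 in TAC and 10.2 in sham (-0.16). These are the lowest ratio and the fourth highest of the 66, within 1 gene of 12995 bp. The region 9929 bp inside was weak, at percentile 9.89 of all regions by mean signal, and was called in sham only. By maximum signal its ratio was -0.85, and that of the region at the start was -0.40. Slc25a36, a pyrimidine nucleotide carrier gene, had 11.6 in TAC and 17.1 in sham (-0.53), the sixth strongest region. Slc25a33, which carries pyrimidine nucleotides too, had 7.54 in TAC and 13.9 in sham near its start (-0.81).

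Slc25a39, the glutathione carrier gene, had 10.2 in TAC and 15.5 in sham at its start (-0.56). Slc25a16 had 7.61 in TAC and 10.9 in sham at its start (-0.47), and Slc25a17, which encodes a carrier of the peroxisome, 6.07 in TAC and 10.1 in sham (-0.65). The 13 regions of this group, at 7 genes, had a median of -0.56.

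Relatives of the uncoupling proteins and carriers without an assigned substrate made up the last 8 regions, in 5 genes, with a median log2 ratio of -0.55. Slc25a30 was the strongest, with 11.8 in TAC and 16.3 in sham (-0.43). Slc25a27 had 8.02 in TAC and 11.5 in sham (-0.48), in a region nearer to the start of Cyp39a1. Slc25a35 held the 1 region of the family called in TAC only. That region, chr11:68972831-68974121, had 8.63 in TAC and 9.15 in sham (-0.075) but a maximum of 18 in TAC and 14 in sham, and is centred 344 bp from the start of the neighbour Rangrf. The regions at the start of Slc25a35 (6.85 in TAC and 10.7 in sham) and 11124 bp upstream, at the start of Arhgef15 (7.54 in TAC and 11.9 in sham), were called in sham only. Slc25a34, with 5.49 in TAC and 11.1 in sham (-0.90), shared its region with Tmem82, and Slc25a53 had the weakest region of the 66, with 4.73 in TAC and 7.23 in sham (-0.52).

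Regions of the same gene often had different ratios. Among the 19 genes with more than 1 region, the lowest and highest log2 ratio of a gene differed by a median of 0.39, and by 0.011 (Slc25a10) to 0.87 (Slc25a51). The start was not regularly the lower one. In 13 genes with a region within 1000 bp of the start and another beyond 5000 bp, the ratio at the start was lower than the median of the distant regions in 7 and higher in 6. In 9 of the 13, Slc25a20 among them, every distant region had the start of another listed gene nearer, so its signal cannot be assigned to the carrier. The ratio at the start minus that of the distant regions was lowest in Slc25a20 (-0.69) and Slc25a25 (-0.65) and highest in Slc25a51 (0.87). For Slc25a25 the start is the upstream one. Its regions at 21258 bp and 29398 bp, counted here as distant, hold further RefSeq starts of the gene.

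**Figure D3:**
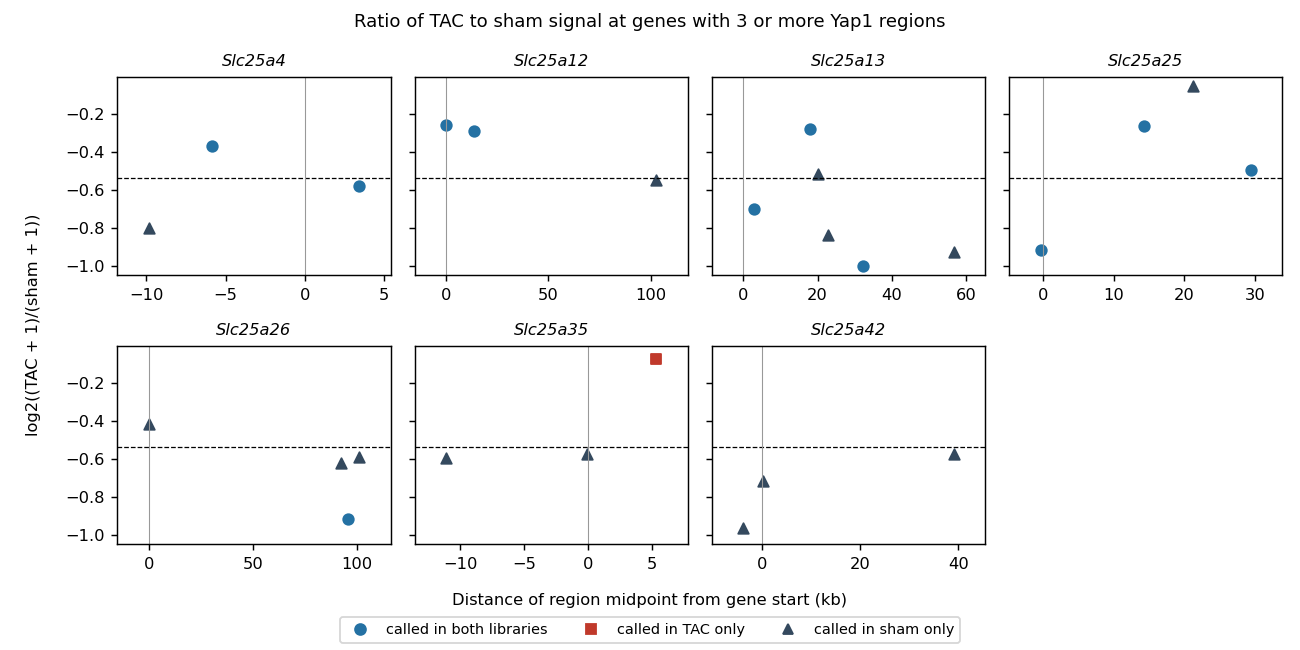
Log2 ratio of TAC to sham average signal (vertical axis) against the distance of the region midpoint from the gene start in kb (horizontal axis) for 7 genes with at least 3 regions; marker shapes give the call class and the dashed line is the median of all regions (-0.54). Regions of Slc25a25 run from -0.92 at the upstream start to -0.056 inside the gene, and those of Slc25a13 from -1.003 to -0.28.

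The highest signal within a region, in place of its average, gave the family a median log2 ratio of -0.62, against -0.55 over all regions. At 7 of the 66 (10.6%) the maximum in TAC was at or above that in sham, and 10.6% of all regions did the same. It was above sham in 5 of them, among these the regions of Slc25a35 next to Rangrf, the start of Slc25a12, Slc25a25 (19 in TAC and 18 in sham, 14282 bp inside) and downstream of Slc25a5 (21 in TAC and 20 in sham). The average of each of the 5 was lower in TAC. The lowest ratio by maximum was that of the region 717 bp inside Slc25a15, with 8 in TAC and 21 in sham (-1.29).

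**Figure D4:**
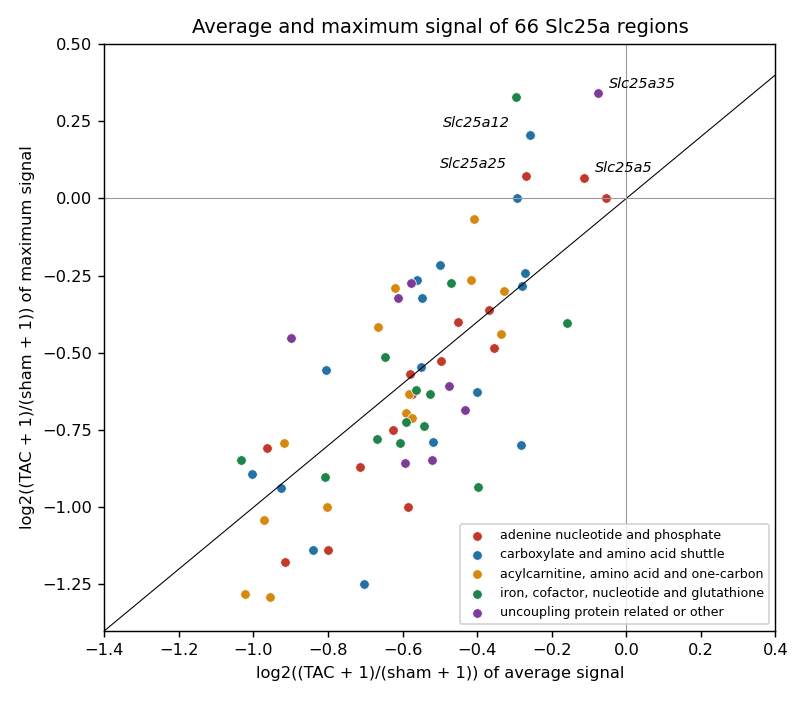
Log2 ratio of TAC to sham by maximum signal (vertical axis) against that by average signal (horizontal axis) for the 66 Slc25a regions, coloured by transport role, with the line of equal ratio. The 4 named regions have a maximum above sham in TAC but an average below it.

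Next to other promoters, the carrier promoters had a slightly lower ratio, which turned with the choice of regions. The median log2 ratio was -0.57 at the 50 promoter regions of the family and -0.49 at the 9729 other promoter regions. The interval of the family's median over regions was -0.59 to -0.48. It describes spread over regions within 1 library per operation, and some of these regions share a gene, so it cannot test the difference. The family minus the others was -0.080 at promoters with a CpG island (43 regions of the family) and -0.077 at those without (only 7). In 5 classes of mean signal, from the weakest to the strongest, it was -0.12, -0.091, -0.099, -0.088 and -0.0029. Each class held only 8 to 13 regions of the family. Promoter regions listed for 1 gene had the opposite sign, with a difference of 0.033. The share of promoter regions listed for several genes was 72.0% in the family and 53.7% in the others. Away from promoters the difference was 0.0089, over 16 regions of the family. No test of these differences was possible with 1 library per operation.

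Other groups of promoters lay close by. The median log2 ratio was -0.52 at 201 promoter regions of other solute carrier genes, -0.51 at 125 of respiratory chain and ATP synthase genes and -0.51 at 93 of mitochondrial ribosomal protein genes. Median average signal at promoters was 8.41 in TAC and 12.8 in sham for the family, and 8.94 in TAC and 12.8 in sham for the respiratory chain.

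**Figure D5:**
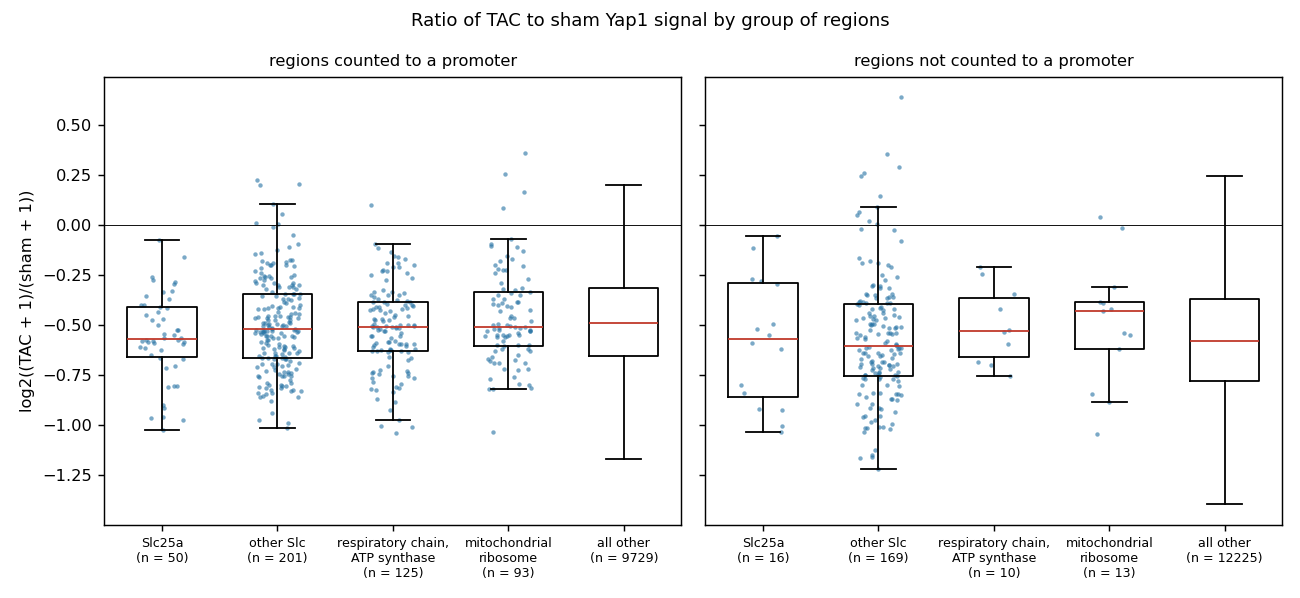
Log2 ratio of TAC to sham average signal by group of regions, at promoters (left) and elsewhere (right); boxes give the quartiles and median, whiskers reach the last value within 1.5 times the interquartile range, and points are single regions of groups under 300. At promoters the medians run from -0.57 (Slc25a) to -0.49 (all other).

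The family was listed more often than the average gene. A region was listed for 34 of the 47 Slc25a genes (72.3%, 95% exact binomial interval 57.4 to 84.4%), against 11651 of 21900 protein-coding genes (53.2%) and 179 of 342 other solute carrier genes (52.3%). In 27 of the 34 genes, at least 1 region had the carrier's start as the nearest of the listed ones. The others were listed only at regions nearer to another gene's start, and this share was not taken for other genes. By start sites, 22 of 36 (61.1%) lay inside a region, against 6931 of 17456 other protein-coding genes (39.7%). Regions spanned over 90% of the gene in 3 of the 34 genes (8.82%), which are Slc25a4, Slc25a11 and Slc25a22, against 3.43% of other genes with a region. The median length of the gene was 15182.5 bp in the family and 23292 bp in the others.

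The 13 genes with no listed region were Slc25a14, Slc25a18, Slc25a21, Slc25a24, Slc25a28, Slc25a31, Slc25a37, Slc25a40, Slc25a43, Slc25a46, Slc25a47, Slc25a48 and Slc25a54. The nearest region lay 11836 bp (Slc25a47) to 228702 bp (Slc25a40) from the gene. Among them are Slc25a31, the ADP/ATP carrier gene of the testis, Slc25a47, a carrier gene expressed mainly in liver, and both mitoferrin genes, Slc25a28 and Slc25a37, whose products import iron. By role, 9 of 11 acylcarnitine, amino acid and one-carbon carriers had a region, 7 of 9 nucleotide and phosphate carriers, 6 of 8 carboxylate and amino acid shuttle carriers, 7 of 10 cofactor carriers and 5 of 9 of the rest.

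Related genes gave mixed values, here with each gene represented by its strongest region. Carriers under other names had 4 of 5 genes with a region. Ucp3, an uncoupling protein gene of muscle, had 8.83 in TAC and 15.2 in sham (-0.72), while the adjoining Ucp2 had 11.4 in TAC and 12.4 in sham (-0.11). Mtch2 was at -0.31 and Mtch1 at -0.49, and Ucp1, the gene of brown fat, had none. Of 20 genes for other transport across the mitochondrial membranes, 19 had a region. Average signal was at least 1.5-fold lower in TAC at 9 and at least 1.5-fold higher at 1, where 36.3% of all listed genes were lower and 0.208% higher. Both subunits of the mitochondrial pyruvate carrier were among the lower ones, Mpc1 with 13.4 in TAC and 24.4 in sham (-0.81) and Mpc2 with 9.72 in TAC and 20.5 in sham (-1.002). Vdac1, the main outer membrane channel gene, had 13.2 in TAC and 21.4 in sham (-0.65). Sfxn1, a mitochondrial serine transporter gene, was the higher one, with 9.61 in TAC and 4.33 in sham (0.99) in a region 29235 bp inside the gene and called in TAC only.

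Carriers reach the inner membrane through the import receptor Tomm70a, small chaperones of the space between the membranes and the translocase Timm22. Of 13 genes of this route, 9 had a region, and 1 of the 9 was at least 1.5-fold lower in TAC, Timm10 (9.56 in TAC and 16.01 in sham, -0.69). Timm22 was at -0.58, Timm9 at -0.54, Tomm70a at -0.46 and Agk, a subunit of the translocase, at -0.079. The carriers themselves, with 1 region per gene, had a median of -0.56, and 12 of 34 (35.3%) were at least 1.5-fold lower in TAC, near the 36.3% of all listed genes.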

How the data were processed

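Yap1 was measured by ChIP-seq in whole hearts, with 1 library for TAC and 1 for sham. The pooled input library had no column in the table and was not analysed here. BWA, MACS 1.4.2 and the build mm10 are named in the submitters' processing notes. Per the file headers, the deposited table gives the average and the maximum signal of each merged region in each library, 0 or 1 for a call, the listed genes with their distance from the midpoint, and counts of CpG islands and promoters. The 32930 called intervals were merged into 22020 regions by the authors. The sources used here give no read depth, call threshold or scaling between libraries, so no counting interval of a signal is possible.

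Ratios were log2((TAC + 1)/(sham + 1)). Coordinates are those of the table, on mm10. All 34 Slc25a symbols were current in the RefSeq gene table (GRCm38.p6), as were 12191 of 13464 listed symbols, with 868 more matched by a synonym. Motifs were searched in 32851 RefSeq promoter windows. Members and lists were chosen with earlier results of these data known. Described in full are the 8 strongest regions, the 5 highest and 5 lowest ratios, regions called in TAC only, genes with at least 3 regions, and Slc25a3, Slc25a4, Slc25a5, Slc25a11, Slc25a12, Slc25a13 and Slc25a20. One gene of the family is counted in the totals but not reported here. Other genes named were chosen after their values were seen. The ratio and the 1.5-fold size relative to the median of all regions were tested on simulated data, with less spread than the real regions. The counts of motifs, promoters, covered genes and listed genes were not tested in this way. Python 3.11.15, pandas 2.3.3, numpy 2.4.6 and scipy 1.17.1 were used.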

Additional observations from a re-analysis of the deposited data

How the results depend on the processing

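All 66 regions kept a ratio below 0 with a pseudocount of 0.1 or 5, and 59 by maximum signal. With the median ratio of all regions subtracted 38 were below 0, and after quantile normalization 41. Subtracting 1 value from every region turns the sign of those above it by construction, and 37 of the 66 were below 0 under every one of these settings. The median log2 ratio of the family, -0.57, was -0.61 with a pseudocount of 0.1, -0.42 with 5, -0.62 by maximum signal, -0.032 relative to all regions and -0.085 after quantile normalization. With 1 region per gene, -0.56 became -0.60, -0.42, -0.61, -0.019 and -0.053. The count of regions at least 1.5-fold lower, 27, was 39 with a pseudocount of 0.1, 35 by maximum signal, 13 with a pseudocount of 5, 0 relative to all regions, 0 after quantile normalization and 3 at a 2-fold size. It was 13 of 40 regions at or above the median signal, 11 of 41 called in both libraries, 10 of 26 listed for 1 gene and 14 of 32 within 5000 bp of the start. Fewer regions entered these last counts. The share of all regions at least 1.5-fold lower was taken only for the main setting (43%) and relative to the all-region median (2.31%). The other counts therefore do not show whether the family departs from the rest. No setting tried gave a region at least 1.5-fold higher. The family's median minus that of all other regions, -0.033, was -0.076 by maximum signal, -0.059 after quantile normalization, -0.081 at promoters and 0.044 for regions listed for 1 gene. The promoter difference of -0.081 was 0.033 for regions listed for 1 gene, and the cause was not tested. No paired analysis was possible because there was 1 library per operation. With depth unknown and no replicates, the error of a single region's ratio is unknown.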
